A study of Mus musculus with 2 samples.

Results

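The TGF-β and activin signalling genes of AML12 cells, a mouse hepatocyte line, were compared between untreated cells and cells made senescent with hydrogen peroxide. The set comprises 10 genes listed by name for their roles, and it was chosen with earlier results of these data known. Its genes are the ligands Tgfb1, Tgfb2 and Tgfb3, the receptors Tgfbr1 and Tgfbr2, and the activin subunits Inhba and Inhbb. The others are the activin-binding protein Fst, the signal transducer Smad3 and the inhibitor Smad7. All 10 were found by their symbols among the 35275 genes counted. RNAseq was run on control AML12 cells, which were untreated, and on senescent AML12 cells, which received 6 daily exposures of 1 h to hydrogen peroxide, the first at 1 mM and the next 5 at 0.75 mM, each followed by 23 h of recovery in complete medium. The labels give strain CD-1, liver, male and an age of 3 months for both groups, and the methods give dexamethasone and insulin-transferrin-selenium in the complete medium. AML12 cells descend from hepatocytes of a mouse carrying a human TGF-α transgene, so both groups are the same immortal line and neither is liver tissue. RNA of 3 samples per condition was pooled into 1 library per condition, so there was no replicate check, no p-value could be computed, and each ratio compares 2 libraries and not the conditions.

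TGF-β ligands are secreted in a latent complex, and once released they bind the type II receptor TGFBR2, which recruits and activates the type I receptor TGFBR1. The activated receptor phosphorylates SMAD2 and SMAD3, which enter the nucleus with SMAD4 and alter transcription, while SMAD7 is induced by the pathway and blocks the receptor. Activins are dimers of the INHBA or INHBB subunits that signal through their own receptors to the same SMADs, and follistatin (FST) binds and neutralises them. In liver the pathway is known for restraining hepatocyte proliferation and for fibrogenesis, and members of it belong to the secretory phenotype of senescent cells.

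The control library held 28021941 reads on 17403 genes and the senescent library 25738075 reads on 17592 genes. Reads were scaled by the TMM method, and 14383 genes with at least 10 reads over both libraries were given a log2 ratio of senescent over control. These are called tested genes below, although 1 library per condition allows no statistical test. Their median log2 ratio was -0.015 and the middle 50% lay between -0.48 and 0.36. The bracketed range after a ratio is its 95% interval, taken from the Clopper-Pearson limits of the proportion of reads that came from senescent AML12 cells. All intervals cover only counting error and treat reads as independent. Reads copied by PCR and lacking molecular identifiers do not count molecules independently, so the intervals can be too narrow even for that. The interval left out 0 for 68.6% of all tested genes. All 11 hepatocyte markers were detected, with a summed level of 8518 CPM (read counts scaled to the TMM library size) in control and 10170 in senescent AML12 cells. The keratins Krt8 and Krt18 summed to 5499 and 8295 CPM, and the other 9 hepatocyte markers to 3019 and 1876 CPM. Of these 9, albumin (Alb) was counted 32076 and 2917 times, Apoa1 2026 and 197 times and Apob 22158 and 25094 times. Of all 11 markers 5 had an interval above 0 and 4 had one below 0, with a median log2 ratio of 0.023. Of 8 stellate cell and fibroblast markers 4 were at 3 or fewer reads in both libraries, and the list summed to 1.03 and 1.37 CPM. Of its 3 tested markers 2 were higher by the rule of the next paragraph, Reln with 0 and 12 reads and Rgs5 with 3 and 16, and 1 was lower, Col1a1, while Col3a1 was at 0 in both. The 5 endothelial markers summed to 0.206 and 0.524 CPM, and the macrophage-defining Adgre1 and Clec4f were at 0 in both libraries, while the 6 macrophage markers summed to 193.5 and 82.05, mostly from Cd14. Of 4 tested macrophage markers 2 were higher, Csf1r with 15 and 40 reads and Ptprc with 27 and 76. The 4 cholangiocyte markers summed to 1023 and 994.2 CPM, led by Krt19 with 22885 and 19177 reads. The others did not all follow this sum, with Krt7 at 3248 and 1026 reads (log2 ratio -1.43), Sox9 at 3602 and 4454 (0.54) and Epcam at 0 and 1. The part of other cell types in the results below was not tested. The name senescent follows the treatment label. Of 7 senescence and proliferation genes 3 had an interval above 0 and 3 had one below 0. Cdkn1a had 6182 control and 9869 senescent reads (log2 ratio 0.90), and Cdkn2a had 437 and 149 (-1.32). Mki67 had 3322 and 1635 reads (-0.79) and Lmnb1 2249 and 1556 (-0.30). The proliferation genes did not all differ alike, as Top2a had 3576 and 3452 reads (0.18, 0.11 to 0.25). Ccnb1 had 861 and 782 (0.091, -0.051 to 0.23), and Trp53 had 5364 and 5494 (0.26).

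At a log2 ratio past 1.5, the fold threshold of the study, with the added condition that the counting interval leaves out 0, 0 of the 9 tested genes of the set were higher and 1, Tgfb3, was lower in senescent AML12 cells. By the same rule 2.71% of all tested genes were higher and 5.60% lower. At a log2 threshold of 1, 2 of the 9 were higher (Inhba and Smad3) and 3 were lower (Tgfb3, Tgfbr1 and Tgfb2), beside 5.09% higher and 9.98% lower among all tested genes. The median log2 ratio of the 9 genes was 0.063, against -0.015 over all tested genes. The tenth gene, Fst, had too few reads to be tested. In bulk RNA, fewer cells expressing a gene and less of its RNA per cell cannot be told apart.

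**Figure D1:**
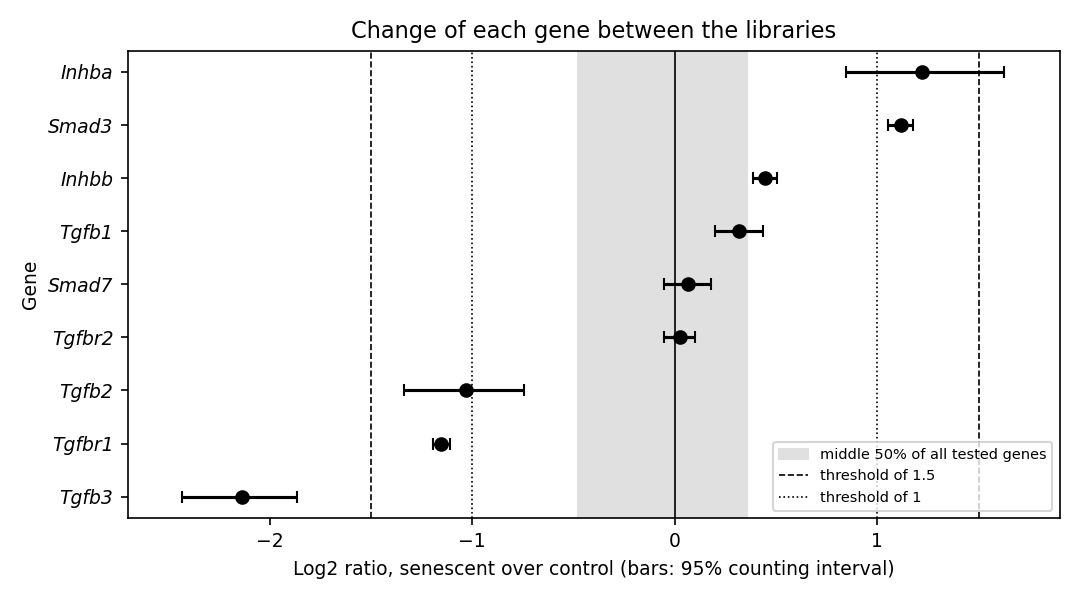
Log2 ratio of senescent over control AML12 cells for the 9 tested genes, with 1 library per condition. Points are the ratios, bars the 95% counting intervals, the grey band the middle 50% of all 14383 tested genes, and the dashed and dotted lines mark log2 ratios of 1.5 and 1 in either direction. Tgfb3 at -2.14 is the only gene past the dashed lines, and Inhba at 1.22, Smad3 at 1.12, Tgfbr1 at -1.15 and Tgfb2 at -1.03 lie past the dotted lines.

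The promoters of the genes with a log2 ratio past 1 in either direction are shown to give the sequence that precedes each of them. RefSeq promoters were matched for 7 of the 10 genes (2 start sites for Tgfbr1, the first shown) and not for Tgfb3, Smad7 or Fst. Each sequence is the 250 bases before the annotated start, 5′ to 3′ on the strand of the gene, on GRCm38.p6. Capitals mark 4 short motifs searched on both strands: the SMAD-binding core CAGAC (or GTCTG), the AP-1 site TGACTCA (or TGAGTCA), the GC box GGGCGG (or CCGCCC) and the TATA motif TATAAA (or TTTATA). Tgfb2 (chr1:186705990-186706239, minus strand), Tgfbr1 (chr4:47352972-47353221, plus strand), Smad3 (chr9:63757995-63758244, minus strand) and Inhba (chr13:16011601-16011850, plus strand) read as follows.
Tgfb2: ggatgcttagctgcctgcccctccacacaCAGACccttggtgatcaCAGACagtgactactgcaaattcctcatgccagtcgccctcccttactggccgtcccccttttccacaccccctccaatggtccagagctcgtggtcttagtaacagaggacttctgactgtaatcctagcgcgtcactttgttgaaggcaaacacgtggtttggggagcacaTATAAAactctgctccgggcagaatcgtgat
Tgfbr1: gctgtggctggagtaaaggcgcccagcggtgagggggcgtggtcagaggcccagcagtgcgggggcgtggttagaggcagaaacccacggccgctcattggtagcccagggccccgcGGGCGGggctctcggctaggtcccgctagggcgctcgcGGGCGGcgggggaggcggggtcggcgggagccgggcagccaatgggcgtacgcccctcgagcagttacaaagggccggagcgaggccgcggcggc
Smad3: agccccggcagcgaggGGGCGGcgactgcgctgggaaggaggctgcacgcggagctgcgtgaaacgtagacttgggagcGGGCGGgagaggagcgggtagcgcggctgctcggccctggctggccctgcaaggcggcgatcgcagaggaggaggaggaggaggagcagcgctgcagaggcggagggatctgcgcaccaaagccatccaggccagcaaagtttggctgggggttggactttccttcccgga
Inhba: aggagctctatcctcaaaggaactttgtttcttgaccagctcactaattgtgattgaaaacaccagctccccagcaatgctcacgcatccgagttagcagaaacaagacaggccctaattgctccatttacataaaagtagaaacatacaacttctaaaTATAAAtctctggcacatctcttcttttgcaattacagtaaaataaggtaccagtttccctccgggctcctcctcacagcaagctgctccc

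The Tgfb2 promoter held 2 copies of the SMAD core, whose first bases lie 221 and 204 bases before the start, and a TATA motif 31 to 26 bases before it. The SMAD core was found in 42.2% and the TATA motif in 12.4% of all 32851 promoters of this length. Tgfbr1 and Smad3 each held 2 GC boxes, a motif of 32.7% of all promoters, and neither the SMAD core nor the TATA motif was found in these windows. The window of the second Tgfbr1 start, not shown, held 1 SMAD core and no GC box, with a GC content of 52.8%. Inhba held a TATA motif 91 to 86 bases before its start and no GC box. The AP-1 letters, present in 4.46% of all promoters, were in none of these 4 windows. The GC content was 43.2% for Inhba, 53.6% for Tgfb2, 69.2% for Smad3 and 74.8% for Tgfbr1, beside a median of 52.4% over all promoters. No 2 matches overlapped, and a motif match is a description of the letters only.

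Of the 3 TGF-β ligands, Tgfb3 and Tgfb2 were lower in senescent AML12 cells and Tgfb1 was slightly higher. Tgfb3 (ENSMUSG00000021253, chromosome 12 from 86056745 to 86079041, minus strand, GRCm38) encodes the TGF-β3 isoform. It was counted 643 times in control and 124 times in senescent AML12 cells. It fell 4.40-fold, a log2 ratio of -2.14 (-2.43 to -1.87), and 2.80% of tested genes had a lower ratio. Exons of 2 opposite-strand genes, Gm37804 and Gm48008, overlap 4.82% and 7.60% of the Tgfb3 exon bases, and neither is among the genes counted. Of the 50-base windows of Tgfb3 transcripts 8.79% were also found in transcripts of these 2 genes, while for each of the other 9 genes at most 1.40% of windows were found in any other gene. With an assumed biological coefficient of variation of 0.4 between samples, the interval of Tgfb3 ran from -3.77 to -0.52 and left out 0. This held for none of the other 8 tested genes of the set, whose log2 ratios were all smaller in size. The share of all tested genes with such an interval is not given at this setting. The result therefore does not set Tgfb3 apart from other genes. Past the fold threshold of the study and with such an interval, 234 of the 14383 tested genes were higher and 559 lower.

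Tgfb2 (ENSMUSG00000039239, chromosome 1 from 186622792 to 186705989, minus strand) had 327 control and 136 senescent reads. Its log2 ratio of -1.03 (-1.34 to -0.74) is a 2.04-fold lower level in senescent AML12 cells. The antisense gene Gm29491 shares 124 exon bases with it and had 8 and 3 reads. Tgfb1 (ENSMUSG00000002603, chromosome 7 from 25687002 to 25705077, plus strand), the isoform best known from fibrosis, had 1135 control and 1207 senescent reads. This is 1.25-fold higher, with a log2 ratio of 0.32 (0.20 to 0.44) inside the middle 50% of all tested genes.

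The make-up of the ligand transcripts therefore differed between the libraries. Levels between genes were compared per length, as RPKM, the CPM divided by the kilobases of exon of a gene. Tgfb1 stood at 7.74 in control and 9.65 in senescent AML12 cells, Tgfb3 at 6.54 and 1.48, and Tgfb2 at 1.94 and 0.947. The level ratio of Tgfb1 to Tgfb3 was 1.18 (1.07 to 1.31) in the control and 6.53 (5.43 to 7.92) in the senescent library. Tgfb1 made up 47.7% (45.6 to 49.9) of the ligand level in control and 79.9% (77.7 to 82.0) in senescent AML12 cells. The share of Tgfb3 was 40.3% (38.1 to 42.6) and then 12.2% (10.3 to 14.4), and that of Tgfb2 was 12.0% (10.8 to 13.3) and then 7.84% (6.61 to 9.22). With the length of the longest transcript in place of all exons, the share of Tgfb1 was 63.5% in control and 88.1% in senescent AML12 cells, so its size depends on the transcript assumed while its direction does not. Summed with all exons as length, the 3 ligands stood at 16.2 and 12.1, with a log2 ratio of -0.43 (-0.52 to -0.33). The size of this sum ratio and of the level ratio of Tgfb1 to Tgfb3 also depends on the transcript assumed. Their intervals do not cover that choice, and the sum was not computed with the longest transcript. The difference between the log2 ratios of Tgfb1 and Tgfb3 was 2.46 (2.16 to 2.76), and that between Tgfb2 and Tgfb3 was 1.11 (0.71 to 1.51), and neither depends on how the libraries were scaled.

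**Figure D2:**
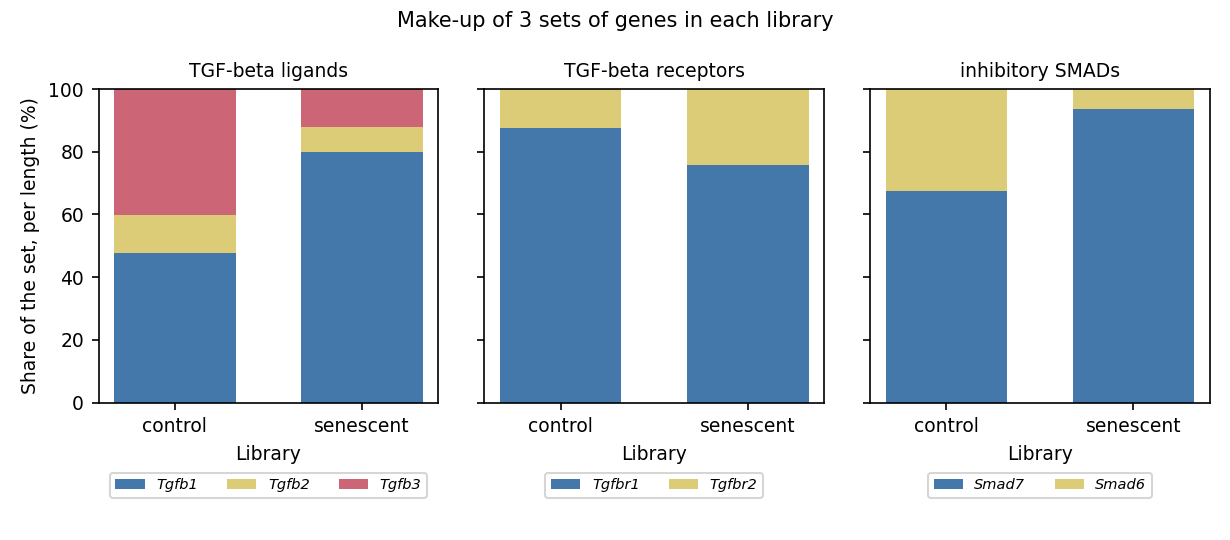
Make-up of related transcripts in control and senescent AML12 cells, as the percent of the summed level per length, with 1 library per condition. Tgfb1 takes 47.7% of the 3 TGF-β ligands in control and 79.9% in senescent AML12 cells, and Tgfb3 takes 40.3% and 12.2%. The other panels show Tgfbr1 at 87.6% and 75.7% of the 2 TGF-β receptors and Smad7 at 67.4% and 93.6% of the 2 inhibitory SMADs.

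The activin subunits both had higher values in senescent AML12 cells, and their binding protein follistatin was close to the limit of detection in both libraries. Inhba (ENSMUSG00000041324, chromosome 13 from 16011851 to 16031621, plus strand) encodes the subunit of activin A. It had 85 control and 170 senescent reads. It was 2.33-fold higher (log2 ratio 1.22, 0.85 to 1.62), and 4.03% of tested genes had a higher ratio. Inhbb (ENSMUSG00000037035, chromosome 1 from 119415465 to 119422248, minus strand) encodes the subunit of activin B. It had 4322 control and 5016 senescent reads (log2 ratio 0.44, 0.39 to 0.50).

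Inhba differed more between the libraries than Inhbb, with a difference of log2 ratios of 0.79 (0.41 to 1.17), but it remained the minor subunit. Per length Inhbb stood 76.4 times (61.6 to 95.8) above Inhba in control and 44.3 times (38.0 to 51.9) in senescent AML12 cells. Inhba thus made up 1.29% (1.03 to 1.60) and 2.21% (1.89 to 2.56) of the pair. The remaining subunits of this family were close to or at 0, with 0 reads for Inha, 1 read in each library for Inhbc, and 10 control and 3 senescent reads for Inhbe.

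Fst (ENSMUSG00000021765, chromosome 13 from 114452290 to 114458951, minus strand) had 6 control and 2 senescent reads. Of its exon bases 115 overlap the antisense gene Gm47040, which is not among the genes counted. The ratio of its scaled counts, 2.56-fold lower in senescent AML12 cells, has a counting interval from 0.458 to 25.9 that holds 1. Its interval in the control, from 0.017 to 0.098 RPKM, overlaps that in the senescent library, from 0.0021 to 0.064, so no difference was detectable at this depth. Per length Inhba stood 10.2 times (4.49 to 28.5) above Fst in control and 61.0 times (16.6 to 508) in senescent AML12 cells, with overlapping intervals. The related activin-binding protein gene Fstl3 had 1869 and 1171 reads (log2 ratio -0.45, -0.55 to -0.34) and far exceeded Fst in both. The level ratio of Inhbb to Fstl3 was 1.33 (1.26 to 1.40) in the control and 2.46 (2.31 to 2.63) in the senescent library.

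The type I and type II TGF-β receptors did not differ alike between the libraries. Tgfbr1 (ENSMUSG00000007613, chromosome 4 from 47353222 to 47414931, plus strand), the type I receptor kinase, had 16355 control and 6276 senescent reads. It was 2.22-fold lower (log2 ratio -1.15, -1.19 to -1.11), and 8.90% of tested genes had a lower ratio. Tgfbr2 (ENSMUSG00000032440, chromosome 9 from 116084293 to 116175360, minus strand), the type II receptor that binds ligand first, had 2908 and 2521 reads. Its log2 ratio was 0.024 (-0.054 to 0.10) and turned to -0.015 with upper-quartile scaling and -0.083 (-0.16 to -0.006) with total-count scaling, so no direction is given for it.

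Tgfbr1 was the most abundant gene of the set per length in the control, at 86.1 RPKM, and stood at 38.7 in senescent AML12 cells, whereas Tgfbr2 stood at 12.2 and 12.4. The level ratio of Tgfbr1 to Tgfbr2 was thus 7.05 (6.77 to 7.33) in the control and 3.12 (2.98 to 3.27) in the senescent library. The difference between the log2 ratios of Tgfbr2 and Tgfbr1 was 1.18 (1.09 to 1.26). Although Tgfbr1 was lower, it remained the more abundant receptor transcript in both libraries.

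Among the intracellular genes, Smad3 was higher in senescent AML12 cells and Smad7 was not distinguishable between the libraries. Smad3 (ENSMUSG00000032402, chromosome 9 from 63646767 to 63757994, minus strand), which carries TGF-β and activin signals to DNA, had 3280 control and 6060 senescent reads. It was 2.17-fold higher (log2 ratio 1.12, 1.05 to 1.18), and 4.96% of tested genes had a higher ratio. Smad7 (ENSMUSG00000025880, chromosome 18, plus strand), the feedback inhibitor of the receptor, had 1291 and 1150 reads. Its log2 ratio was 0.063 (-0.053 to 0.18), and -0.044 with total-count scaling.

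Per length, Smad3 stood at 20.4 in control and 44.1 in senescent AML12 cells, and Smad7 at 9.82 and 10.3. The level ratio of Smad3 to Smad7 was 2.07 (1.94 to 2.21) in the control and 4.30 (4.04 to 4.58) in the senescent library, a difference of log2 ratios of 1.05 (0.92 to 1.18). Smad2, the partner receptor-regulated SMAD, had 1397 and 1748 reads (log2 ratio 0.55, 0.45 to 0.66), and Smad3 made up 78.8% (77.7 to 79.9) and 84.6% (83.9 to 85.3) of the pair. Smad4, the shared partner of all receptor-regulated SMADs, had 2821 and 2940 reads (0.29, 0.21 to 0.36).

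**Figure D3:**
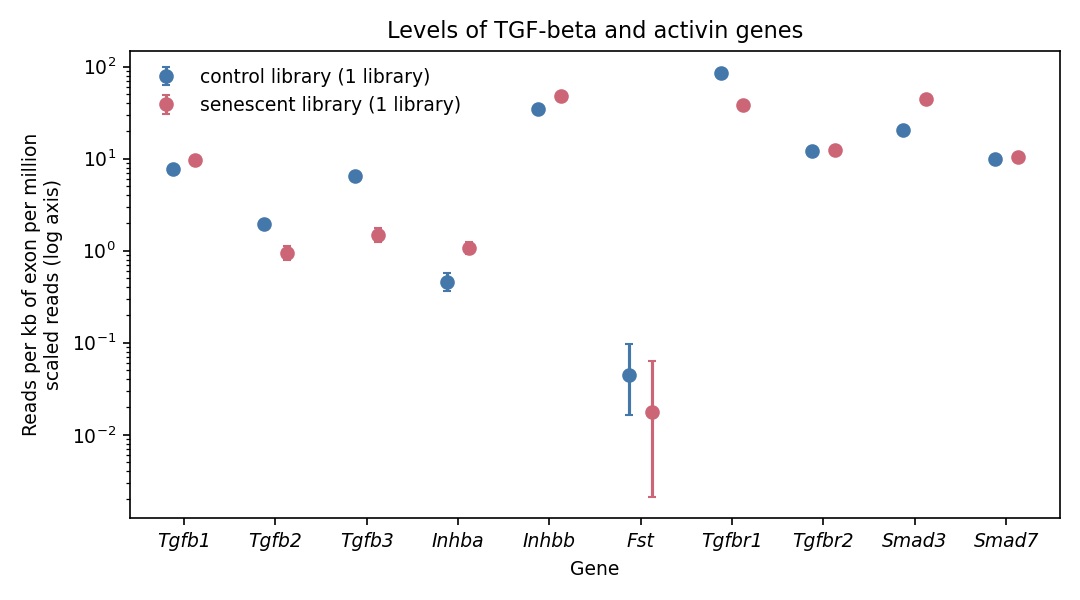
Level per length of each gene in control and senescent AML12 cells, in RPKM on a log axis. Points are the 2 libraries and bars their 95% Poisson counting intervals. Tgfbr1 at 86.1 leads in the control, Inhbb at 47.5 and Smad3 at 44.1 lead in the senescent library, and Fst lies lowest in both.

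The order of the levels therefore differed between the libraries. With all exons as length, it ran in control AML12 cells from Tgfbr1 through Inhbb, Smad3, Tgfbr2, Smad7, Tgfb1, Tgfb3, Tgfb2 and Inhba to Fst. No neighbours had overlapping counting intervals, but these do not cover the choice of length. With the longest transcript as length the control share of Tgfb1 among the ligands was 63.5% in place of 47.7%, so its place in the order may differ. In senescent AML12 cells Inhbb (47.5, interval 46.2 to 48.9) and Smad3 (44.1, 43.0 to 45.2) lay above Tgfbr1 (38.7, 37.8 to 39.7). Smad7 (9.67 to 10.9) and Tgfb1 (9.12 to 10.2) had overlapping intervals in the senescent library. There the interval of Inhba (0.917 to 1.25) overlapped both that of Tgfb3 (1.23 to 1.76) and that of Tgfb2 (0.794 to 1.12).

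**Figure D4:**
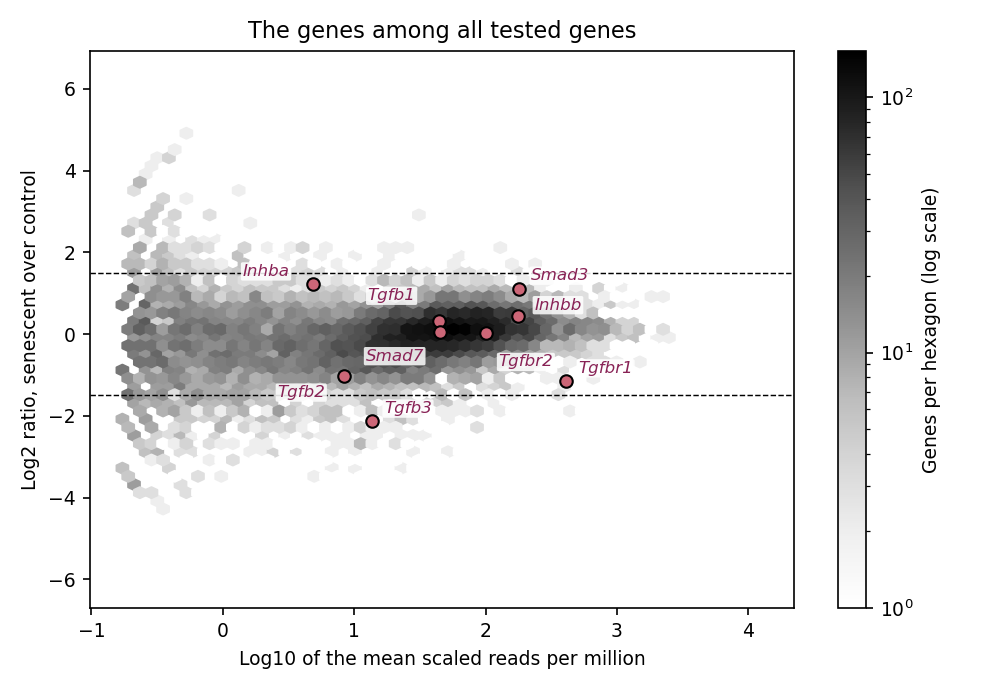
Log2 ratio of senescent over control against the log10 of the mean CPM for all 14383 tested genes (grey hexagons, darker for more genes on a log scale) with the 9 tested genes of the set as points. The dashed lines mark log2 ratios of 1.5 in either direction. Tgfb3 at -2.14 lies below the lower line, and Smad3 at 1.12 and Tgfbr1 at -1.15 lie between the lines.

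The set was then placed among 102 pathway genes grouped by role, of which 78 were tested. These lists too were chosen with earlier results of these data known, so their shares are a description only. Of these 78 genes 0 were higher and 9 (11.5%) lower at the threshold of 1.5, beside 2.71% and 5.60% of all tested genes, and 4 of the 9 had a senescent library at 3 or fewer reads. For genes with so few reads the ratio of the scaled counts is given as a fold with its counting interval. At a threshold of 1, 2 were higher, both from the set, and 15 (19.2%) lower, beside 5.09% and 9.98%. Their median log2 ratio was -0.11, against -0.015 over all tested genes.

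Among the 14 genes of ligands, latency and activation, 12 were tested and 3 were lower, with a median of -0.28. Beside Tgfb3 these were Lrrc32, which encodes the surface anchor GARP of latent TGF-β, with 66 control and 1 senescent read (56.3-fold lower, 9.76 to 2260), and Itgb8, an integrin subunit that activates latent TGF-β, with 10 and 1 (8.53-fold lower, 1.21 to 370). The genes with the most reads were Ltbp3, a latent TGF-β binding protein, with 11162 and 14710 reads (log2 ratio 0.63, 0.59 to 0.66), and Furin, the protease that cleaves the ligand precursors, with 11087 and 8376 (-0.17, -0.22 to -0.13).

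All 5 receptors and co-receptors were tested, none was counted as higher or lower and the median was -0.59. The co-receptor gene Tgfbr3 had 263 and 181 reads (-0.31, -0.59 to -0.031) and the endothelial co-receptor gene Eng 43 and 24 (-0.59, -1.40 to 0.14). Acvrl1, a type I receptor of endothelial cells, had 10 and 2 reads, a 4.26-fold lower count with an interval from 0.909 to 40.0 that holds 1. Of the 4 activin receptor genes 3 were tested and none was counted either. The type I receptor gene Acvr1b had 2014 and 1594 reads (-0.11, -0.20 to -0.012), and of the type II receptor genes Acvr2a had 1236 and 704 (-0.58, -0.72 to -0.45) and Acvr2b 93 and 109 (0.45, 0.046 to 0.87).

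Of 7 extracellular antagonists 4 were tested and 2 were lower. Bambi, a decoy receptor without kinase activity and a target gene of several SMAD and WNT signals, fell from 507 to 90 reads (-2.25, -2.60 to -1.94). Fstl1, a follistatin-like gene, had 27 and 3 reads (7.68-fold lower, 2.36 to 39.5). Lefty1, an antagonist of Nodal, had 817 and 1016 reads (0.54, 0.41 to 0.68).

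In the SMAD family 8 of 8 genes were tested, 0 were higher and 1, Smad6, was lower, with a median of -0.050. Smad6, the inhibitory SMAD that acts mainly on BMP receptors, fell from 443 to 56 reads (-2.73, -3.18 to -2.35). Smad7 lay 2.82 (2.40 to 3.23) above it on the log2 scale of the ratios. Per length Smad7 made up 67.4% (65 to 69.8) of the 2 inhibitory SMADs in control and 93.6% (91.8 to 95.1) in senescent AML12 cells. Smad9, a BMP-regulated SMAD, had 17 and 7 reads (-0.96, -2.56 to 0.29).

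None of the 16 tested intracellular regulators passed the threshold of 1.5, with a median of 0.11. Smurf1, a ubiquitin ligase for SMADs and receptors, had 2047 and 3263 reads (0.90, 0.82 to 0.98), and Fkbp1a, which binds the resting type I receptor, had 10999 and 14748 (0.65, 0.62 to 0.69). Lower values were measured for Ldlrad4, a membrane inhibitor of SMAD activation, with 67 and 24 reads (-1.22, -1.99 to -0.56), for the corepressor Tgif2 with 247 and 111 (-0.92, -1.26 to -0.60) and for the ubiquitin ligase Nedd4l with 1199 and 627 (-0.71, -0.85 to -0.57). Pmepa1, a feedback inhibitor induced by TGF-β, had 3225 and 3047 reads (0.15, 0.076 to 0.22).

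Of 26 textbook TGF-β target genes 20 were tested, 0 were higher and 1 lower, and the median log2 ratio was 0.037. Fn1, which encodes fibronectin, had 29310 control and 10127 senescent reads (-1.30, -1.34 to -1.27). Ccn2, which encodes connective tissue growth factor, had 19633 and 26898 reads (0.68, 0.66 to 0.71). These 2 abundant targets thus differed in opposite directions.

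The matrix cross-linking enzyme gene Loxl2 had 1084 and 424 reads (-1.12, -1.29 to -0.96), and the transcription factor gene Bhlhe40 had 2861 and 1281 (-0.93, -1.03 to -0.83). The 1 target past the threshold was Col1a1, with 21 control and 1 senescent read (17.9-fold lower, 2.88 to 741). Its reads put it at the edge of detection in this epithelial line, where Col3a1 had 0.

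The BMP and GDF branch held 22 genes of which 12 were tested, and 2 were lower. These were the BMP target genes Id3, which fell from 569 to 50 reads (-3.26, -3.73 to -2.86), and Id1, which fell from 2424 to 674 (-1.62, -1.74 to -1.49), both inhibitors of basic helix-loop-helix factors. Id2 had 9874 and 4843 reads (-0.80, -0.85 to -0.75). The BMP-binding gene Bmper had 42 and 13 reads (-1.40, -2.48 to -0.54), Gdf11 had 97 and 47 (-0.80, -1.35 to -0.30) and the protease gene Bmp1 had 3669 and 3599 (0.20, 0.14 to 0.27). The median of the branch was -0.13.

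**Figure D5:**
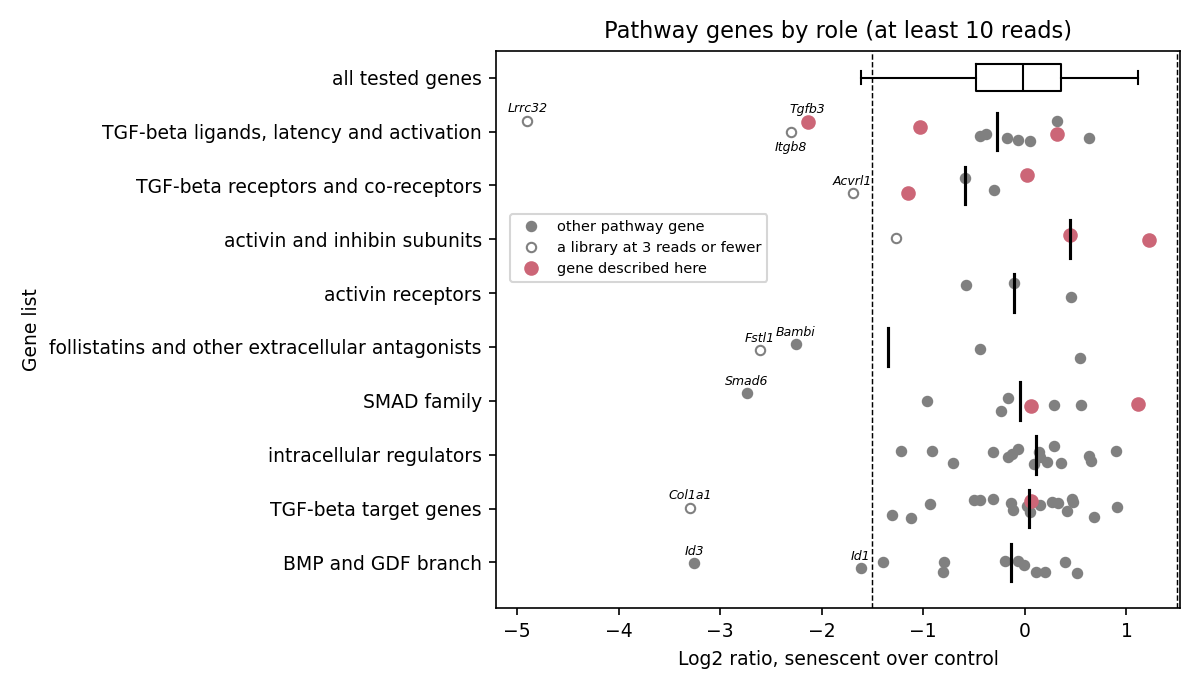
Log2 ratio of senescent over control for the pathway genes with at least 10 reads, 1 row per role list, with a black bar at each median. Larger coloured points are genes of the set, open circles are genes with 3 or fewer reads in a library, whose plotted ratio depends on the prior count of 1, the box spans the middle 50% of all tested genes with whiskers from the 5th to the 95th percentile, and dashed lines mark 1.5 in either direction. All 9 genes past a line with an interval that leaves out 0 lie on the lower side and are named, and Acvrl1 is named too although its interval holds 0.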

How the data were processed

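The authors deposited raw counts of reads per gene, listed by Ensembl identifier, for 1 library per condition. Per the labels, mRNA was captured on poly-T beads and cDNA was primed with random hexamers. The submitters' processing notes name CASAVA, STAR, DESeq2, edgeR and mm10, and the counting tool, annotation and use of strand are not given in the sources used here, so reads of overlapping antisense genes cannot be told apart. Columns were assigned by the initials of the sample titles. Symbols, positions and exon lengths came from GENCODE M21 (GRCm38), and 34490 of 35275 genes (97.8%) had a symbol. Counts were scaled with edgeR 4.0.16 (TMM factors of 1.04 for control and 0.964 for senescent) in R 4.3.3. Log2 ratios, with a prior count of 1 in proportion to library size, and intervals used scipy 1.17.1, pandas 2.3.3 and numpy 2.4.6 under Python 3.11.15, and plots used matplotlib 3.10.9. Intervals are Clopper-Pearson for ratios and shares, Poisson for levels, and normal approximations on the counts for differences of ratios and sums. The scripts were tested on simulated data. The alternatives were total-count, upper-quartile and DESeq2 1.42.0 scaling, minimum reads of 1 or 100, prior counts of 0.125 or 5, a threshold of 1, assumed coefficients of variation of 0.1 or 0.4, and the longest transcript as length. The 10 genes and the lists were chosen with earlier results of these data known. All 10 are named, and of each other role list up to 4 genes with the largest ratio among those with at least 10 reads and up to 2 with the most reads. Inha, Inhbc, Top2a and Ccnb1 are named beside this rule, as are the cell type markers given for the libraries.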

Additional observations from a re-analysis of the deposited data

How the results depend on the processing

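Over 3 other scalings and 2 other prior counts, Tgfb1, Tgfb2, Tgfb3, Tgfbr1, Smad3, Inhba and Inhbb kept the sign of their log2 ratio, with Tgfb3 between -2.24 and -2.10. Tgfbr2 and Smad7 did not, as given with their values. Total-count scaling moved the median of all genes by -0.11 and gave 332 higher and 905 lower genes, against 390 and 805 with TMM. At a threshold of 1, 2 genes of the set were higher and 3 lower, and of the pathway genes 2 were higher and 15 lower. By that rule 5.09% of all tested genes were higher and 9.98% lower. With at least 100 reads, 5 pathway genes were lower in place of 9, since fewer were tested, and 141 and 395 of all genes were called higher and lower. A prior count of 5 gave 259 and 602, and an assumed coefficient of variation of 0.4 gave 234 and 559. At 0.1 the intervals of 6 of the 9 genes left out 0, and at 0.4 that of 1, Tgfb3. The shares of all tested genes with such intervals at these settings are not given, so these counts do not set the genes apart from others. With the longest transcript as length the control shares were 63.5% for Tgfb1, 9.20% for Tgfb2 and 27.3% for Tgfb3, and the senescent shares 88.1%, 4.99% and 6.89%. Depth limits Fst, with 8 reads in all, and the genes at 3 or fewer reads. No paired analysis was possible because each condition has 1 library.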
